A study of Homo sapiens with 12 samples.

Results

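The stretch of chromosome 2 from 239.5 to 241.3 Mb (build hg19), at the genes TWIST2 and HDAC4 in band 2q37, held 28 PAX5 peaks of the 6 deposited lists. Merged where they overlapped or touched, these peaks gave 14 sites, of 14465 such regions in all lists together. The window was selected on p-values: it holds the strongest region of both L428-PAX5 lists and, 829 kb away, the strongest region of both Namalwa lists. Members were thus chosen by p rank, and p-values and ranks are given below as a description, with no test. The authors gave 1 p-value per peak, and it is printed as −log10 p, so that a larger value is a stronger peak. The weakest peak of any list had a −log10 p of 5.01.

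PAX5 was precipitated from 3 human lymphoma cell lines. L428-PAX5 comes from the classical Hodgkin lymphoma line L428, carries an inducible PAX5, and was treated with Mifepristone, with overproduction of PAX5 induced 48 h before fixation. Raji and Namalwa are untreated Burkitt lymphoma lines and are called the B-cell lines. Each line had 2 immunoprecipitated libraries, whose peak lists are used here, and 2 input libraries, which are not analysed here. Nothing in the labels ties a line's libraries to separate cultures, so the spread between them may be technical. Hodgkin lymphoma is represented by this 1 line.

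PAX5 is a paired-domain transcription factor that commits cells to the B lineage, and it can activate or repress the genes it binds. TWIST2 is a basic helix-loop-helix factor, known mainly from mesenchymal tissues, where it represses transcription. HDAC4 is a class IIa histone deacetylase that acts as a corepressor, best known as a partner of the MEF2 factors. In the RefSeq gene order of build GRCh38.p14, ASB1 is the closest protein-coding gene on one side of TWIST2 and HDAC4 is the closest on the other. Beyond HDAC4 come NDUFA10, a subunit of mitochondrial complex I, the olfactory receptor genes OR6B2 and OR6B3, and COPS9, a subunit of the COP9 signalosome. This order is on another build than the peaks, so no site is placed in a gene, exon, intron or promoter here. The names give the order of genes only, and the neighbours of TWIST2 and HDAC4 are not placed inside or outside the window. No genome sequence of hg19 was used either, so no site sequence is shown.

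The L428-PAX5 lists held 7 and 4 of the 28 peaks in replicates 1 and 2, against 1 and 1 in Raji and 11 and 4 in Namalwa. A peak of L428-PAX5 stood at 7 of the 14 sites, a peak of Namalwa at 9 and a peak of Raji at 1, against 47.6%, 44.0% and 36.7% of all regions for L428-PAX5, Namalwa and Raji. The choice of the window required peaks of L428-PAX5 and Namalwa but not of Raji, so nothing is read from these counts. Most sites had peaks of L428-PAX5 or of the B-cell lines but not of both, with 5 sites of L428-PAX5 alone, 7 of the B-cell lines alone and 2 of both. Over all 14465 regions, 39.7% had peaks of L428-PAX5 alone, 52.4% of the B-cell lines alone and 7.90% of both, so most regions of the genome were also of one side alone. No site had a peak in all 6 libraries, a pattern that 1.02% of all regions showed.

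**Figure D1:**
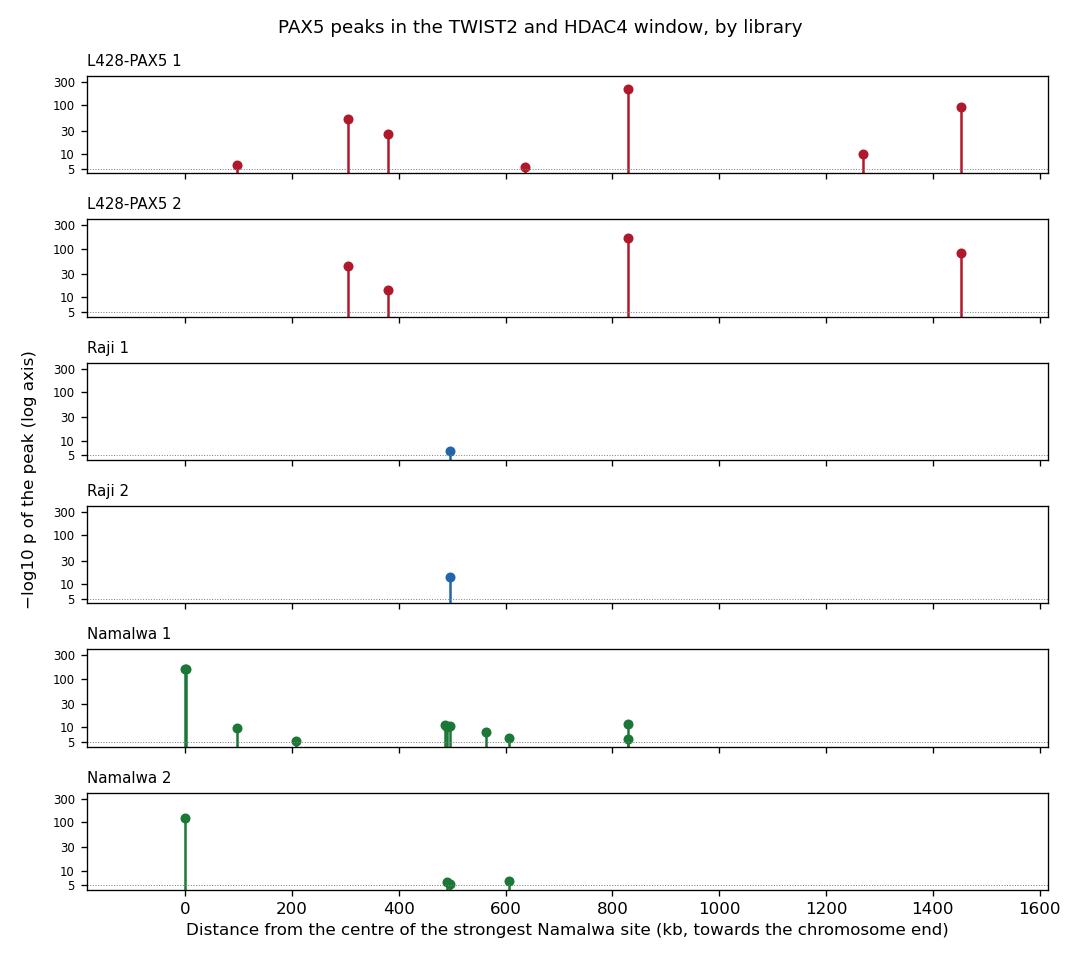
Each panel is 1 library, each point 1 deposited peak, the x axis the distance in kb from the centre of the strongest Namalwa site and the y axis −log10 p on a log axis, with a dotted line at 5. The tallest points stand at 829 kb in both L428-PAX5 libraries and at 0 kb in both Namalwa libraries, while each Raji library has 1 peak, at 496 kb.

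Sites held by both libraries of the same line are called reproducible. Both L428-PAX5 libraries had a peak at 4 of the 14 sites, against 17.2% of all regions. Both Raji libraries had a peak at 1 site, against 15.1% of all regions, and both Namalwa libraries at 4 sites, against 13.0%. In all, 8 of the 14 sites were reproducible in at least 1 line, against 36.7% of all regions, and 5 sites were found in 1 library alone, against 55.1%. No site was held by both Raji libraries and nothing else, against 3.05% of all regions. The window was picked for peaks that both libraries of a line held, so these counts start above the share of all regions, and nothing is read from them.

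The strongest L428-PAX5 site lay at chromosome 2, 240513807 to 240515751. It was first of the 6201 peaks of L428-PAX5 replicate 1, with a −log10 p of 220.3, and first of the 3252 peaks of replicate 2, with 169 (mean 195 ± 36.1, SD, n = 2). Namalwa replicate 1 also had peaks there, with a −log10 p of 11.6 and 5.76, at ranks 2004 and 5319 of its 6241 peaks. Namalwa replicate 2 and both Raji libraries had none. The L428-PAX5 libraries are thus at the top of their lists at a place where 1 of the 4 B-cell-line libraries has peaks of middle and low rank. That combination of libraries was uncommon, at 66 regions or 0.456% of all.

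In L428-PAX5 the −log10 p of the site was 1.41 times that of the next region in replicate 1 and 1.37 times that in replicate 2. The strongest region of the other lists had ratios of 1.79 and 1.21 in Raji, where it lies on chromosome 3, and of 1.44 and 1.11 in Namalwa, so the lead of the L428-PAX5 site was within the range of the others. The L428-PAX5 site was wide, with peaks of 1928 bp in replicate 1 and 1926 bp in replicate 2, against median widths of 542 and 505 bp over their lists. Only 6 peaks of L428-PAX5 replicate 1 and 10 of replicate 2 were wider. The edges of the L428-PAX5 peaks lay 16 bp apart at the start and 18 bp apart at the end. The median offsets over 2435 regions with 1 peak in each L428-PAX5 library were 48 and 45 bp, so the libraries placed this site more closely than the median one, although it was 3.56 and 3.81 times as wide as the list medians of replicates 1 and 2.

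The Namalwa replicate 1 peaks at this site lay inside the L428-PAX5 peak. They were 689 and 588 bp wide, with a gap of 422 bp between them. The first started 65 bp inside the peak of L428-PAX5 replicate 1, and the second ended 164 bp before the end of that peak. Together they covered 66.2% of the L428-PAX5 replicate 1 peak, with the uncovered stretch between them near its middle. The nearest peak of Namalwa replicate 2 was 222 kb away, and the nearest Raji peaks were 332 kb away in both libraries.

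The strongest Namalwa site lay at chromosome 2, 239684938 to 239686530. Namalwa replicate 1 split it into 2 peaks, which were the first and second of its list, with a −log10 p of 159 and 157. Namalwa replicate 2 had 1 peak there, the first of its 2107, with 118. With the stronger peak of replicate 1, the mean was 138 ± 29.0 (SD, n = 2). No L428-PAX5 library and no Raji library had a peak at the site. The nearest L428-PAX5 peaks were 95.4 kb away in replicate 1 and 304 kb away in replicate 2, and the nearest Raji peaks were 494 kb away in both libraries.

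Of the regions among the best 100 peaks of both libraries of a line, few in the B-cell lines were without a peak in the other lines. In L428-PAX5 there were 70 such regions, and 61 of them (87.1%) had no peak in Raji or Namalwa. In Namalwa there were 63, and 7 of them (11.1%) had no peak in L428-PAX5 or Raji. In Raji there were 62, and 1 of them (1.61%) had no peak in L428-PAX5 or Namalwa. The strongest Namalwa site was 1 of the 7 of Namalwa. Of the L428-PAX5 sites of the window, 3 were among the 70, and 2 of these among the 61, the exception being the strongest one with its Namalwa peaks. At any rank, 2043 of the 2487 regions held by both L428-PAX5 libraries had no peak in the other lines. For Namalwa this held for 508 of 1879 regions, and for Raji for 441 of 2179. Raji and Namalwa can each share regions with another Burkitt line and L428-PAX5 cannot, so nothing is read from the difference between lines.

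The Namalwa site was narrower than the L428-PAX5 one, at 1592 bp against 1944 bp for the merged sites. In Namalwa replicate 1 the peaks were 843 and 532 bp wide with a gap of 217 bp. In Namalwa replicate 2 the single peak was 1384 bp wide, with 13 of 2107 peaks wider. The merged outer edges of the Namalwa libraries lay 112 bp apart at the start and 96 bp apart at the end, and their midpoints 8 bp apart. Over 1815 Namalwa regions with 1 peak in each library, which the split site is not, the medians were 64 bp for the start, 64 bp for the end and 45.5 bp for the midpoint, so the edges here were looser and the midpoint closer. Namalwa replicate 1 had at least 2 peaks in 79 of its 6159 regions (1.28%), and both of the strongest sites of the window were among those 79. No other library had a split site in the window.

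**Figure D2:**
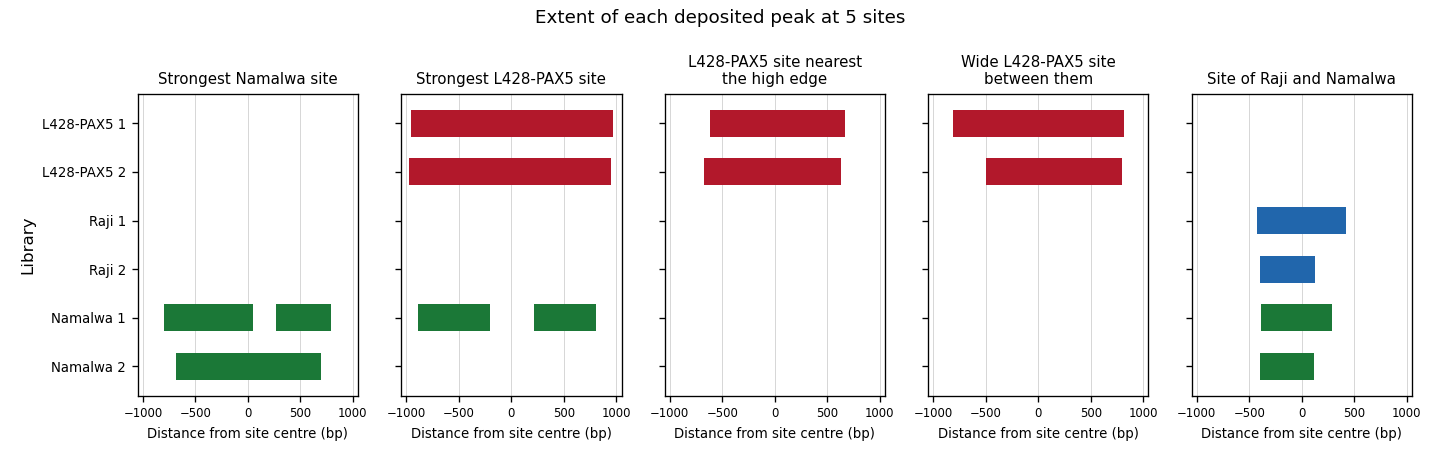
Bars show the extent of each deposited peak, in bp from the centre of the merged site, for 5 sites of the window, with 1 row per library. Both L428-PAX5 libraries give 1 peak of over 1900 bp at their strongest site, where Namalwa 1 has 2 peaks 422 bp apart.

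Another 3 sites had peaks of both L428-PAX5 libraries and of no library from Raji or Namalwa, a pattern of 14.1% of all regions. The one at 241.138 Mb (chromosome 2, 241137068 to 241138409) was eighth of its list in replicate 1, with a −log10 p of 94.4, and sixth in replicate 2, with 79.9. Its peaks were 1290 and 1300 bp wide, and it was the last site before the upper edge of the window. The next L428-PAX5 peak was 182 kb away in replicate 1 and 561 kb away in replicate 2.

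The L428-PAX5 site at 239.991 Mb (chromosome 2, 239990036 to 239991665) had a −log10 p of 51.7 in replicate 1 and 43.3 in replicate 2, at ranks 19 and 17. It too was wide, with peaks of 1629 and 1299 bp. Its starts lay 318 bp apart and its ends 12 bp apart, so the libraries differed mainly on one edge. The L428-PAX5 site at 240.065 Mb (chromosome 2, 240064350 to 240065038) was weaker and of ordinary width. It had a −log10 p of 25.5 in replicate 1 and 14.5 in replicate 2, at ranks 173 and 287, and widths of 688 and 609 bp.

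Of the 4 reproducible L428-PAX5 sites, 3 were thus both strong and wide. Among the best 100 peaks of each list, 22 and 19 in L428-PAX5 were at least 1200 bp wide, against 2 and 5 in Raji and 6 and 5 in Namalwa, a width limit chosen after the widths were seen. The window gave 3 of these 22 and 3 of these 19. The median width of the best 100 peaks was 875 and 786.5 bp in L428-PAX5, against 548 and 567 bp in Raji and 700 and 604 bp in Namalwa. The larger medians of L428-PAX5 thus hold for its best 100 peaks. Over whole lists, 160 of 6201 and 64 of 3252 L428-PAX5 peaks were at least 1200 bp wide. Raji had 29 of 2619 and 65 of 4960, and Namalwa 170 of 6241 and 26 of 2107. The best 100 are a larger part of a short list than of a long one.

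**Figure D3:**
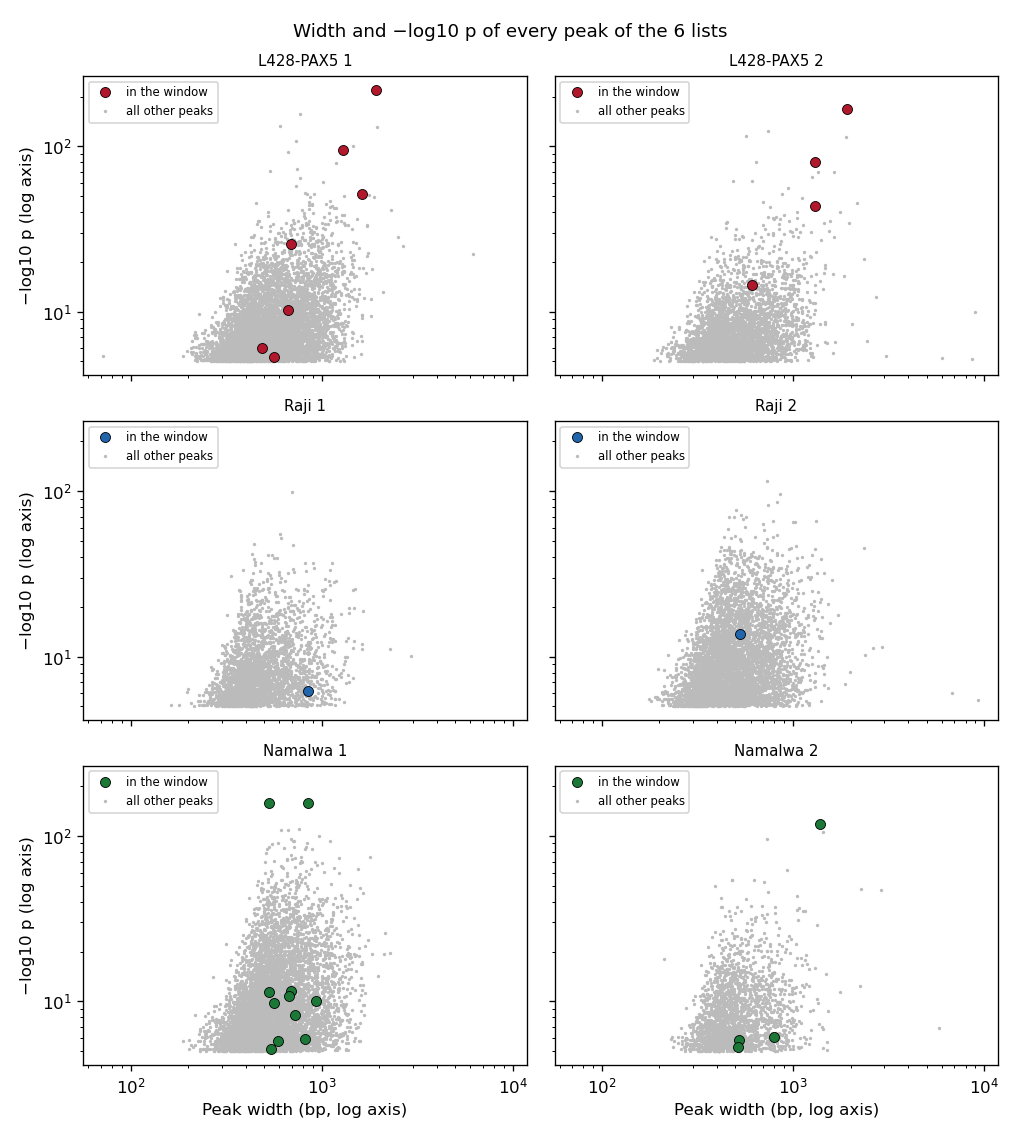
Each panel is 1 library and each point 1 peak, with width in bp on the x axis and −log10 p on the y axis, both on log axes. Peaks of the window are coloured and outlined and all others grey. In L428-PAX5 the 3 strongest window peaks of each library are at least 1290 bp wide, while the widest of the other window peaks of that line is 688 bp.

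A run of 5 neighbouring sites had peaks of the B-cell lines only, as 52.4% of all regions did. This run was picked out after the sites were seen, and its limits are where L428-PAX5 peaks begin on either side. Between 240172638 and 240291780, a span of 119 kb, these 5 sites held 10 peaks, with a −log10 p of 5.28 to 13.7 and widths of 513 to 931 bp. Only 1 of the 5 sites had Raji peaks, and the other 4 had peaks of Namalwa alone. The next L428-PAX5 site began 29.5 kb past the run, closer than the gaps of 66.8 and 41.7 kb between its last 3 sites.

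The site at 240.181 Mb (chromosome 2, 240180823 to 240181667) was the one that Raji and Namalwa shared, and the only Raji site of the window. Its −log10 p was 6.16 in Raji replicate 1 and 13.7 in Raji replicate 2, and 10.8 in Namalwa replicate 1 and 5.28 in Namalwa replicate 2. The ranks ran from 1089 of 4960 in Raji replicate 2 to 1939 of 2107 in Namalwa replicate 2, so the site was among the weakest peaks of one list and in the better part of another. The 4 starts lay within 37 bp of each other, and the ends spread over 305 bp. Peaks of all Raji and Namalwa libraries without any of L428-PAX5 were a pattern of 4.80% of all regions.

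Besides the strongest Namalwa site, 2 sites were found in both Namalwa libraries and no other, a pattern of 3.51% of all regions. The one at 240.175 Mb (chromosome 2, 240174645 to 240175576) had a −log10 p of 9.98 in replicate 1 and 5.85 in replicate 2, and it lay 5.25 kb from the site shared with Raji. The one at 240.291 Mb (chromosome 2, 240290962 to 240291780) had 5.92 and 6.09, with the same end in both libraries. Its peaks ranked 5113 of 6241 and 1538 of 2107, so both were in the weaker part of their lists. A further 2 sites of the span, at 240.173 and 240.249 Mb, were found in Namalwa replicate 1 alone, a pattern of 17.3% of all regions. Their −log10 p was 11.3 and 8.21.

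The other 4 sites were found in the longer list of a line only, with a −log10 p of 5.15 to 10.2. A site at 239.782 Mb had a peak in L428-PAX5 replicate 1, with a −log10 p of 6.04, and in Namalwa replicate 1, with 9.80. Peaks in these libraries and no other were a pattern of 0.989% of all regions. This site was the second of the 2 sites that L428-PAX5 shared with a B-cell line. Sites at 240.322 and 240.955 Mb were found in L428-PAX5 replicate 1 alone, a pattern of 21.2% of all regions. They had a −log10 p of 5.33 and 10.2, the second at rank 1583 of 6201. A site at 239.893 Mb was found in Namalwa replicate 1 alone, with 5.15, a pattern of 17.3% of all regions. The L428-PAX5 and Namalwa replicate 1 lists are the longest of the 6, and a site absent from a shorter list can lie below its threshold.

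The window edges cut through no peak. Just inside the low edge lay the strongest Namalwa site, 185 kb from the edge. Just outside it, 164 kb beyond the edge, lay a peak of L428-PAX5 replicate 1 with a −log10 p of 8.01. Just inside the high edge lay the L428-PAX5 site at 241.138 Mb, 162 kb from the edge. Just outside it, 191 kb beyond, lay a region with peaks of Raji replicate 2, with 5.02, and Namalwa replicate 1, with 8.07.

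The density of PAX5 peaks in the window did not separate L428-PAX5 from the B-cell lines. The window held 3.89 and 2.22 peaks per Mb in L428-PAX5, against 2.51 and 1.31 on the rest of chromosome 2. In Namalwa it held 6.11 and 2.22 per Mb, against 2.02 and 0.705, and in Raji 0.556 and 0.556, against 0.871 and 1.63. L428-PAX5 and Namalwa libraries were thus denser in the window than along the rest of the chromosome, and Raji libraries were less dense, which the choice of the window for its L428-PAX5 and Namalwa peaks in part fixes. Of 1519 stretches of 1.8 Mb over the autosomes and X that held any peak, 20.6% and 21.3% had as many L428-PAX5 peaks or more, against 64.3% and 80.1% for Raji and 8.76% and 11.8% for Namalwa, so many stretches were as rich as this one.

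The window took 0.113% and 0.123% of the L428-PAX5 peaks (mean 0.118 ± 0.00715%, SD, n = 2), against 0.0382% and 0.0202% of the Raji peaks and 0.176% and 0.190% of the Namalwa peaks (mean over the B-cell lines 0.106 ± 0.0893%, SD, n = 4). The L428-PAX5 values lay between those of Raji and those of Namalwa. The difference of 0.0118 percentage points was smaller than the SD between the B-cell-line libraries. With Raji and Namalwa pooled, the two-sided exact permutation p was 0.8 over the 15 choices of 2 libraries out of 6. These shares count the peaks that selected the window, which raises L428-PAX5 and Namalwa and not Raji, so the p is no fair test and is given as a description. With the peaks of the 2 strongest sites left out, a setting added after seeing the data, the shares were 0.0968% and 0.0923% in L428-PAX5, against 0.0382% and 0.0202% in Raji and 0.112% and 0.142% in Namalwa, and the order of the lines was the same. The difference changed direction when Raji replicate 1 was left out, to -0.0108, or Raji replicate 2, to -0.0168. After Benjamini-Hochberg adjustment over the 2 comparisons made of this kind, here and for width, the p was 0.8. The smallest p that 15 choices allow is 0.0667, so no difference between these groups could pass 0.05.

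Peak width did not enter the choice of the window, although in each list the median width of the best 100 peaks was above that of all peaks, as given above for L428-PAX5. The median width of the window's peaks divided by that of the whole list was 1.27 and 2.57 in L428-PAX5 (mean 1.92 ± 0.922, SD, n = 2), against 1.83 and 1.13 in Raji and 1.24 and 1.38 in Namalwa (mean over the B-cell lines 1.40 ± 0.307, SD, n = 4). In all 6 libraries the median of the window's peaks was above that of the list, and the Raji values rest on 1 peak each. L428-PAX5 lay 0.526 above Raji and Namalwa on average, less than the SD of 0.922 between the L428-PAX5 libraries. With Raji and Namalwa pooled, the two-sided exact permutation p was 0.333 (adjusted 0.667). Without L428-PAX5 replicate 2 the difference was -0.126. On lists of equal length it was 0.900, with both L428-PAX5 libraries above all others (two-sided exact permutation p = 0.0667, the smallest possible), so the size of this difference rests on which peaks enter. The window medians count the peaks that selected the window, and strong peaks tended to be wider. The p-values for width are thus no fair test either and are given as a description.

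Whether a repeat, a copy-number gain or another background source gives any of these peaks was not tested, since input libraries, read depths and the hg19 sequence were not used here. The values given beside that question are those of the window and its sites. The 61 strong L428-PAX5 regions without a peak in Raji or Namalwa, which hold 2 of these sites, were not examined for it. The strongest sites were each present in both libraries of their line at rank 1, which is how the window was chosen. Neither was listed in Raji, and Namalwa replicate 1 had peaks with a −log10 p of 11.6 and 5.76 at the strongest L428-PAX5 site. The 3 strong L428-PAX5 sites were at the 98.4th width percentile of their lists or above, and the Namalwa replicate 2 peak was at least as wide as 99.4% of its list. The strongest Namalwa peaks of replicate 1 were at least as wide as 85.4% and 47.7% of theirs. The window ended 1.61 Mb before the last chromosome 2 peak of any list.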

How the data were processed

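Per the labels' protocols, cells of the 3 lines were fixed for 20 min in 1% formaldehyde, and each precipitation used 10 µg of a PAX5 antibody. BWA 0.5.9-r16, CASAVA 1.3 and 1.8 and build hg19 are named in the submitters' processing notes. The authors deposited 1 list per immunoprecipitated library, with position, a name that carries PeakRanger, and a p-value for each peak, a unit judged from its range. For the caller's settings, its use of input and the base from which starts are counted, the answer is not given in the sources used here. Read depth is unknown.

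Samples were grouped by title. Peaks of the 6 lists that touched or shared at least 1 bp were joined into regions. A region belongs to the window when any part of it lies in it. Percentiles and ranks are within a list. Named sites are those with peaks in both libraries of a line, those with a peak among the best 100 of a list, and those next to the window edges; the remaining sites were few and are also given. L428-PAX5 was compared with the B-cell lines by exact permutation over libraries. The members, site rules and tests were chosen with earlier results of these data known. Alternatives were the better 50% of each list, lists of equal length (2107 peaks), reciprocal overlap of 50%, centres within 200 bp, a window wider by 0.5 Mb on each side, a replicate block, and each library left out; the omission of the 2 strongest sites was added after seeing the data. The merging and the permutations were tested on simulated lists. Python 3.11.15, numpy 2.4.6 and matplotlib 3.10.9 were used.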

Additional observations from a re-analysis of the deposited data

How the results depend on the processing

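Of 85 values recomputed under the alternatives, 77 held: counts stayed within 1.5 times, percentiles were the same, and differences, judged by direction only, kept their sign. A part of these could hardly change, so the count of 77 is no measure of robustness. The percentiles are those of sites chosen at rank 1, and the replicate block leaves a difference as it is. Leaving out a library of one line has little bearing on the sites counted for another line. In the better 50% of each list, Raji had 0 reproducible sites and Namalwa 1, and in lists of equal length Namalwa had 1, since the weak sites of the middle span drop out of shorter lists. With each library left out in turn there were 4 to 7 sites for L428-PAX5 (highest without replicate 2, when 1 library decides) and 4 to 10 for Namalwa (highest without replicate 2). The difference in the share of peaks then ran from -0.0168 to 0.0397 percentage points, and that in relative width from -0.126 (without L428-PAX5 replicate 2) to 1.18 (without L428-PAX5 replicate 1). With equal-length lists the share differed by 0.0949 percentage points and the relative width by 0.900, with exact permutation p-values of 0.267 and 0.0667. In the better 50% of each list the share differed by 0.114 percentage points. Without the peaks of the 2 strongest sites, added after seeing the data, the differences were 0.0163 percentage points (exact permutation p = 0.8) and 0.588 (exact permutation p = 0.2). None of these tests can pass 0.05, so nothing follows for their calls. Those that keep the 2 strongest sites also count peaks that selected the window.

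Libraries of different lines share replicate numbers, but no label ties a number to a shared day or culture. Over 14465 regions the deviations of same-numbered libraries correlated at 0.112, -0.156 and -0.096 between the pairs of lines. These values did not show a pairing by number, but peak lists cannot settle whether a number stands for a shared day or culture. With the replicate block, permuting within numbers, the differences were the same, 0.0118 percentage points (exact permutation p = 0.889) and 0.526 (exact permutation p = 0.444). With peak centres within 200 bp, Namalwa replicate 1 had no peak at its own strongest site, because it is split there, and the percentile of 100 rests on replicate 2.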
